A study of Homo sapiens with 12 samples.

Results

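The transcripts of the human mitochondrial genome were followed in HEK293T cells, a widely used line of human embryonic kidney origin with the SV40 large T antigen, after siRNA against the exonuclease gene ERI2. The members were all rows of the RNA-seq gene table whose name starts with MT-, which gave 37 of 55765 rows: 13 mRNAs, 2 rRNAs and 22 tRNAs. Both groups were cells of the HEK293T line (the growth protocol names HEK293) transfected with 50 nM siRNA by lipid reagent, transfected again after 48 hours and harvested 72 hours later. The control siRNA group and the ERI2 siRNA group held 3 RNA-seq libraries each, and the labels name no second ERI2 siRNA and no rescue. The labels do not say that replicates came from separate cultures, so the p-values reflect only how far these libraries vary, and that variation may be technical.

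Mitochondrial DNA is a small circle whose strands, called heavy and light, are each transcribed into a long precursor. Enzymes cut the tRNAs out of the precursor, and this frees the mRNAs and rRNAs that lie between them. All of its mRNAs encode subunits of the respiratory chain or of ATP synthase, and its rRNAs and tRNAs serve the mitochondrion's own ribosomes. MT-ND6 and 8 of the tRNAs are read from the promoter opposite to that of all other members. The nuclear genome carries old copies of mitochondrial DNA, and long copies that closely match MT-ND1, MT-ND2, MT-CO1, MT-CO2, MT-ATP8, MT-ATP6 and MT-CO3 make their counts uncertain, because the labels do not say how reads with several matches were counted. MT-ATP8 overlaps MT-ATP6 and MT-ND4L overlaps MT-ND4, so reads from the shared stretches are uncertain too. Without a stated strand setting, reads from a member and from the RNA opposite to it cannot be told apart.

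Library totals lay between 29.1 and 38.3 (in units of 1000000 counts), and 18843 genes passed the count filter and were tested. ERI2 itself was lower in all 3 ERI2 siRNA libraries, at 34.6, 35.8 and 32.5 CPM (counts per 1000000, scaled by TMM unless total counts are named) against 54.4, 58.2 and 54.4 CPM in the control libraries. Of 5 genes listed as markers of HEK293 lines all were detected, with a summed level of 107 to 121 CPM in control and 88.5 to 104 CPM in ERI2 siRNA libraries. Within that list NEFL and INA fell, and NEFM was lower but did not pass (log2 fold change -0.44, edgeR adjusted p = 0.0530). PAX2 (0.44) and EYA1 (-0.05) did not pass and overlapped between the groups. The part of the list's shift in the results below was not tested. Among markers of other cell types CD3E, COL1A2 and KRT5 were at 0 in every library, and 4 more had group means of at most 0.345 CPM. Over all genes 809 were called higher and 800 lower with all libraries, against 2622 and 2670 with replicates 2 and 3 alone. Differences are also given for these replicates because of that larger number of calls. The subset was thus picked from these data, and in each group replicates 2 and 3 were the libraries that differed least from each other. Its calls are descriptive and are not a separate test.

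Transcripts of the mitochondrial genome took a small share of each library. All MT- rows together held 0.408%, 0.380% and 0.324% of all counts in control replicates 1, 2 and 3. They held 0.367%, 0.338% and 0.355% in the ERI2 siRNA replicates. The ERI2 siRNA values lay inside the control range, with means of 0.371% ± 0.0426 and 0.354% ± 0.0142 (SD, n = 3), so the total amount relative to all other RNA overlapped between the groups. Control replicate 3 had the lowest share of all 6 libraries. It was the lowest control library for 17 of the 17 MT- rows tested, under TMM and under total library size alike. Control replicate 1 was the highest control library for 17 of these 17 rows under total library size and for 13 under TMM. In RNA from a whole culture, fewer cells with a transcript and less of it per cell cannot be told apart.

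By RNA class, mRNAs took 91.4% ± 0.747 (SD, n = 3) of the MT- counts in control and 92.2% ± 0.277 in ERI2 siRNA libraries, rRNAs 8.52% ± 0.728 and 7.70% ± 0.260, and tRNAs 0.127% ± 0.0184 and 0.140% ± 0.0183. These shares are of counts and depend on transcript length, which the files do not give, so levels of different genes were not compared. The labels do not describe RNA selection, so the share of a class in the libraries need not be its share in the cells. As a share of all counts the mRNAs held 0.371%, 0.345% and 0.299% in control and 0.339%, 0.311% and 0.328% in ERI2 siRNA libraries. The rRNAs held 0.0365%, 0.0340% and 0.0249% in control libraries and a narrow 0.0275%, 0.0271% and 0.0271% in ERI2 siRNA libraries. In each class the groups overlapped.

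**Figure D1:**
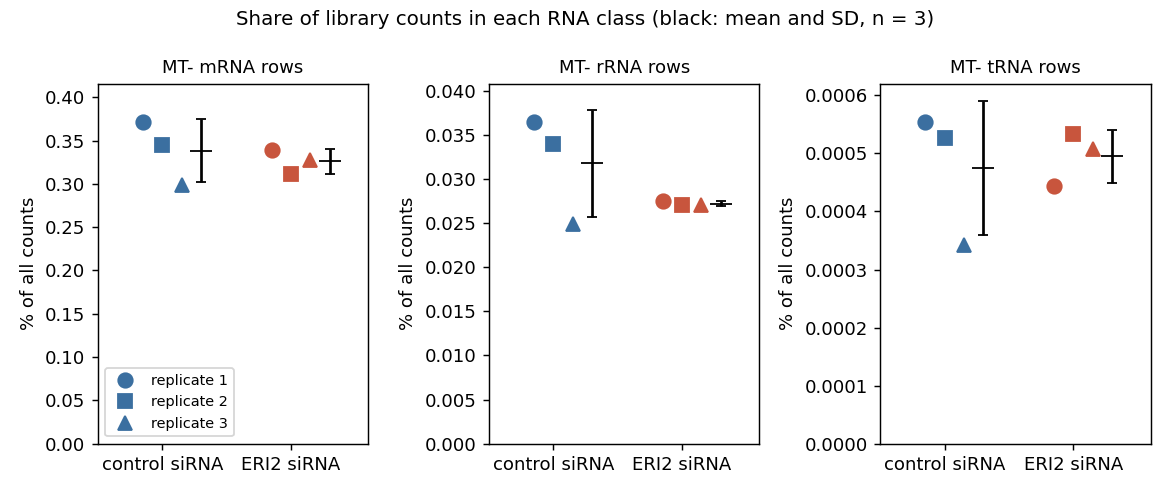
Share of all library counts (%, y axis from 0) in MT- mRNA, rRNA and tRNA rows, 1 point per library, with the mean and SD of each group in black (n = 3). The ERI2 siRNA libraries lie inside the control range in every panel, and control replicate 3 is the lowest control point in each.

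Of the 37 members 17 passed the count filter: all 13 mRNAs, both rRNAs and the tRNA rows MT-TT and MT-TP. The table was fitted as a whole with edgeR's quasi-likelihood test, and a gene was called at a Benjamini-Hochberg adjusted p under 0.05. Under TMM 4 of the 17 rose, all of them mRNAs, and none fell (edgeR's test; 2 were lower at an unadjusted p under 0.05, 1 was called lower by DESeq2 and 0 by limma-voom). Of all 18843 genes tested 4.29% were higher and 4.25% lower, so the 23.5% of tested members called higher lay above that background. Under total library size 1 of the 17 rose and none fell (edgeR's test; 1 lower at an unadjusted p under 0.05), 5.88% of the tested members against 5.17% of all genes higher and 2.47% lower, so that count lay near its background. The TMM count of 4 became 0 without control replicate 3 or ERI2 siRNA replicate 3, 1 without control replicate 2 and 2 without ERI2 siRNA replicate 1. Calls over all genes, in both directions, went from 8.54% to 2.48%, 1.93%, 3.73% and 14.1% in these runs, in that order. The median log2 fold change of the 17 was 0.19 under TMM and 0.25 under total library size, beside 0.003 and 0.06 for all genes tested. By class the TMM medians were 0.26 for the mRNAs and -0.33 for the rRNAs.

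**Figure D2:**
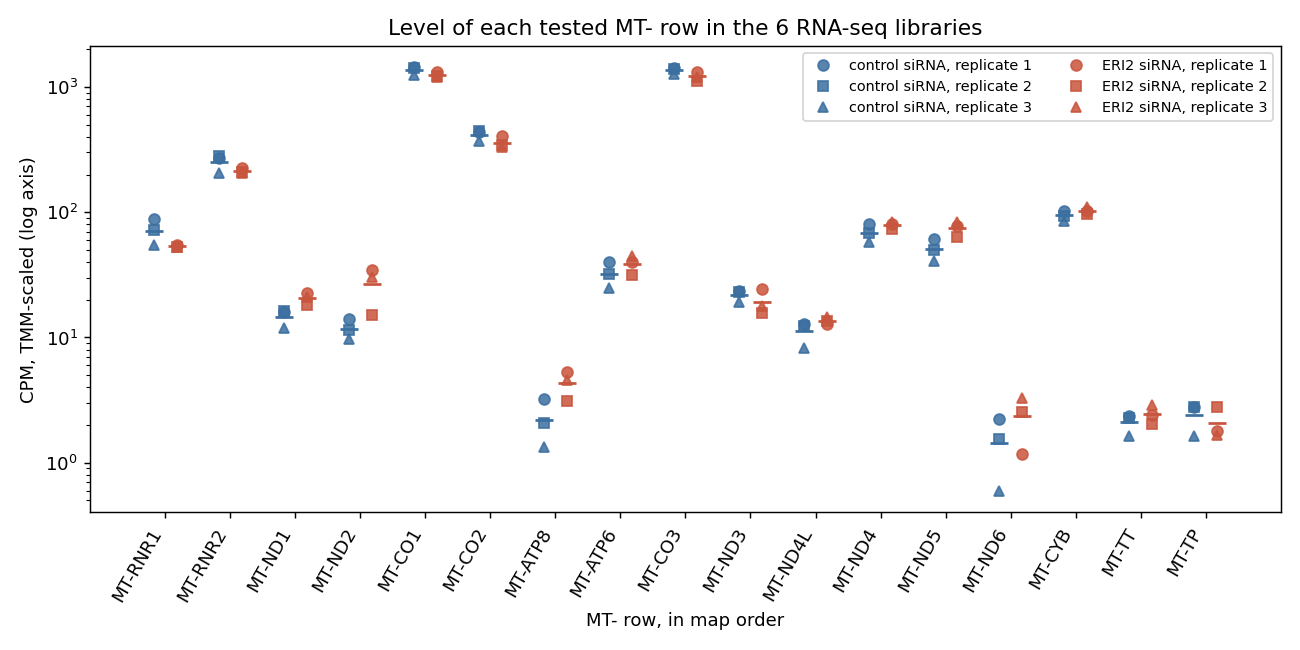
CPM (TMM-scaled, log axis) of the 17 tested MT- rows in map order, 1 point per library and a line at each group mean. MT-ND1, MT-ND2 and MT-ND5 are higher in all 3 ERI2 siRNA libraries than in any control library, and control replicate 3 (blue triangle) is the lowest control in every column.

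Complex I, the NADH dehydrogenase that passes electrons from NADH into the chain, takes 7 subunits from the mitochondrial genome. Of these mRNAs 3 rose under TMM (42.9%, beside 4.29% of all genes) and 1 under total library size (14.3%, beside 5.17%). MT-ND1 measured 15.9, 16.4 and 11.8 CPM in control replicates 1, 2 and 3 and 22.8, 18.3 and 20.9 CPM in the ERI2 siRNA replicates. All ERI2 siRNA libraries were above all control libraries. MT-ND1 rose, with a log2 fold change of 0.49 (SE 0.124; edgeR adjusted p = 0.0298; 0.54 and adjusted p = 0.0261 under total library size). It encodes a membrane subunit next to the site where ubiquinone is reduced. Its call was lost without control replicate 3 (edgeR adjusted p = 0.130) and without ERI2 siRNA replicate 3 (0.0936).

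MT-ND2, another membrane subunit of complex I, had the largest log2 fold change among the tested members. Its levels were 13.9, 11.5 and 9.65 CPM in control and 34.6, 15.2 and 30.3 CPM in ERI2 siRNA libraries. ERI2 siRNA replicates 1 and 3 were far above the controls, while replicate 2 lay just above the highest control. The log2 fold change was 1.18 (SE 0.289; edgeR adjusted p = 0.0462), a mean of 26.7 ± 10.2 against 11.7 ± 2.15 CPM (SD, n = 3). Under total library size it was 1.23 with an edgeR adjusted p of 0.0598, which did not pass. The call was kept without ERI2 siRNA replicate 2 (adjusted p = 0.000531) and lost without any other library: adjusted p in edgeR's test was 0.103, 0.213 and 0.0811 without control replicates 1, 2 and 3, and 0.103 and 0.243 without ERI2 siRNA replicates 1 and 3.

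MT-ND5, which encodes a large proton-pumping subunit, measured 61.6, 50.3 and 41.1 CPM in control and 78.3, 63.4 and 84.1 CPM in ERI2 siRNA libraries. The groups did not overlap, although ERI2 siRNA replicate 2 was close to control replicate 1. MT-ND5 rose by 0.56 on the log2 scale (SE 0.129; edgeR adjusted p = 0.0187), and under total library size it had 0.61 with an adjusted p of 0.0586. The call was lost without control replicate 2 (edgeR adjusted p = 0.0590), control replicate 3 (0.0991) or ERI2 siRNA replicate 3 (0.0831).

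The other complex I mRNAs did not pass. MT-ND4 (0.19, edgeR adjusted p = 0.243) and MT-ND4L (0.28, adjusted p = 0.225), which sit side by side and encode membrane subunits, had overlapping groups with control replicate 3 as the low library. MT-ND3 was the only complex I mRNA with a negative value (-0.18, edgeR adjusted p = 0.432), at 23.3, 23.1 and 19.2 CPM in control and 24.4, 15.6 and 17.9 CPM in ERI2 siRNA libraries. MT-ND6, the only mRNA read from the opposite promoter, measured 2.22, 1.54 and 0.592 CPM in control and 1.17, 2.55 and 3.30 CPM in ERI2 siRNA libraries. Its control libraries spanned 3.74-fold, on 17 to 78 counts each, and its log2 fold change of 0.66 (SE 0.395; edgeR adjusted p = 0.304) did not pass.

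Complex IV, cytochrome c oxidase, reduces oxygen at the end of the chain, and its 3 mitochondrial mRNAs were the main part of the MT- counts. None of them passed, and all 3 had negative values under both scalings. MT-CO1, the catalytic subunit, measured 1439.5, 1424 and 1244 CPM in control and 1307, 1225 and 1200.3 CPM in ERI2 siRNA libraries, a log2 fold change of -0.14 (SE 0.101; edgeR adjusted p = 0.411). MT-CO2, which receives electrons from cytochrome c, measured 433, 441 and 371 against 406, 342 and 332 CPM (-0.21, edgeR adjusted p = 0.196). MT-CO3 measured 1411, 1393 and 1262 against 1318, 1113 and 1208 CPM (-0.16, edgeR adjusted p = 0.345). For each of these mRNAs control replicate 3 lay among the ERI2 siRNA values.

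MT-CYB encodes cytochrome b, the mitochondrial subunit of complex III, and MT-ATP6 and MT-ATP8 encode membrane subunits of ATP synthase. MT-CYB measured 103, 94.1 and 85.7 CPM in control and 103, 96.3 and 109 CPM in ERI2 siRNA libraries (0.13, edgeR adjusted p = 0.341). MT-ATP8 measured 3.21, 2.08 and 1.32 CPM in control and 5.32, 3.09 and 4.59 CPM in ERI2 siRNA libraries. ERI2 siRNA replicate 2 was below control replicate 1, so the groups overlapped, and the counts were 38 to 113 in control and 104 to 168 in ERI2 siRNA libraries. MT-ATP8 rose by 0.95 on the log2 scale (SE 0.274; edgeR adjusted p = 0.0456), and under total library size it had 1.0 with an adjusted p of 0.0550. The call was lost without control replicate 2 (edgeR adjusted p = 0.132), control replicate 3 (0.166), ERI2 siRNA replicate 1 (0.0668) or ERI2 siRNA replicate 3 (0.129). MT-ATP6, whose coding sequence overlaps that of MT-ATP8, did not pass (0.26, edgeR adjusted p = 0.284), at 32.3 ± 7.49 against 38.8 ± 6.81 CPM (SD, n = 3).

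**Figure D3:**
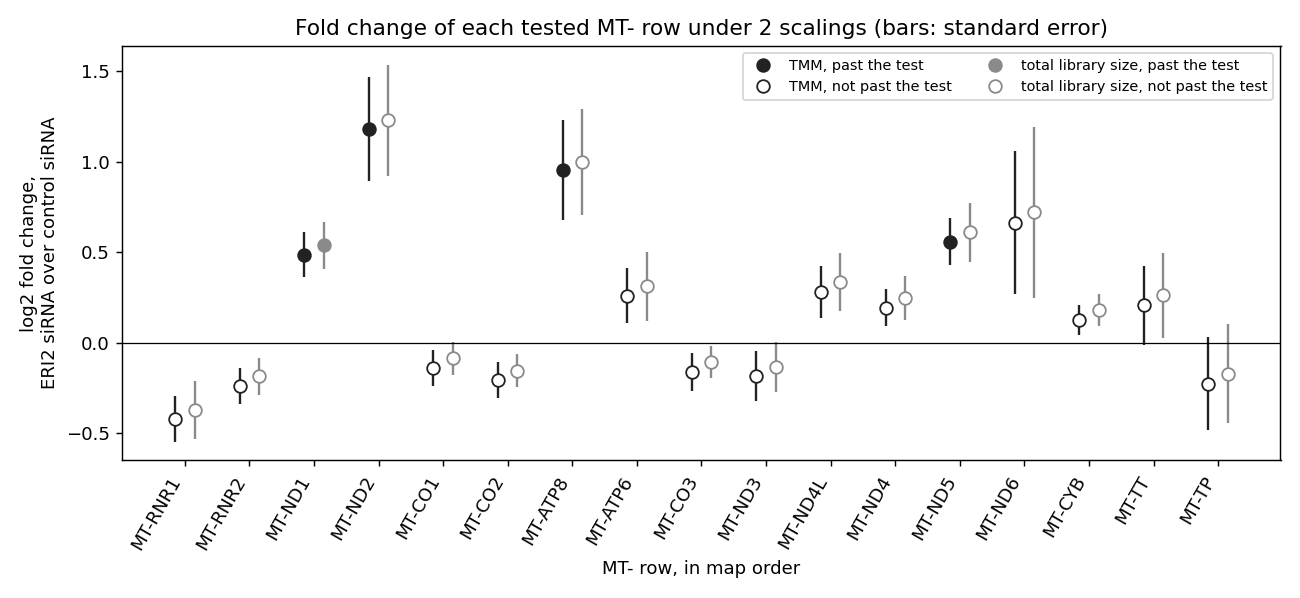
Log2 fold change (ERI2 siRNA over control siRNA, y axis) of the 17 tested MT- rows in map order, with standard errors as bars, under TMM (black) and total library size (grey). Filled points passed edgeR's test: MT-ND1, MT-ND2, MT-ATP8 and MT-ND5 under TMM, and MT-ND1 under total library size.

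The rRNAs MT-RNR1 and MT-RNR2 form the cores of the small and large subunits of the mitochondrial ribosome. MT-RNR1 measured 87.8, 71.9 and 54.6 CPM in control and 54.4, 53.2 and 52.7 CPM in ERI2 siRNA libraries. The ERI2 siRNA libraries lay close together just below the lowest control, while the controls spanned 1.61-fold. The log2 fold change was -0.42 (SE 0.125; edgeR adjusted p = 0.0517), which did not pass, and under total library size the groups overlapped (-0.37, edgeR adjusted p = 0.191). Without control replicate 3 it passed (edgeR adjusted p = 0.0120), and DESeq2 called it lower (adjusted p = 0.0167). MT-RNR2 measured 269.8, 279.9 and 207 against 224, 209 and 208 CPM (-0.24, edgeR adjusted p = 0.146), with control replicate 3 again at the level of the ERI2 siRNA libraries, and it passed only without control replicate 3 (adjusted p = 0.0493).

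Mitochondrial tRNAs carry amino acids to these ribosomes and mark the cutting sites of the precursor. Of the 22 tRNA rows 16 had 0 counts in all 6 libraries, and 6 had any count. A count of 0 allows up to 0.0783 to 0.103 CPM by total counts per library (3 counts, counting error only). The labels do not describe RNA selection, so this bound is on the libraries and not on the tRNA in the cells. MT-TT and MT-TP, the tRNAs for threonine and proline, are neighbours after MT-CYB on opposite strands and were the only tRNA rows tested. MT-TT held 83, 85 and 47 counts in control and 76, 69 and 87 in ERI2 siRNA libraries (log2 fold change 0.21, edgeR adjusted p = 0.584). MT-TP held 98, 104 and 47 counts in control and 57, 93 and 50 in ERI2 siRNA libraries (-0.22, edgeR adjusted p = 0.620). Both overlapped between the groups. The tRNA rows MT-TI, MT-TQ, MT-TF and MT-TE held 31, 23, 8 and 2 counts over all 6 libraries, with at most 9 in any library.

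Among the 17 tested members the groups did not overlap for 3 higher and 1 lower row under TMM, where 14.1% of all genes were higher and 15.6% lower without overlap. Under total library size they did not overlap for 3 higher and 0 lower rows, where the shares of all genes were 17.2% and 11.3%. The 3 higher rows were MT-ND1, MT-ND2 and MT-ND5 under both scalings, and the lower row was MT-RNR1. A count of 3 of 17 is near that background.

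The replicate sets differed for several members. With replicates 2 and 3 alone 6 of the 17 members were higher and 3 lower in edgeR's test. Of all genes 13.9% were higher and 14.1% lower there. Because this subset was picked for its many calls and leaves out the more distant library of each group, its adjusted p-values are favourable. The higher rows were MT-ND1, MT-ATP8, MT-ND4L, MT-ND4, MT-ND5 and MT-ND6, and the lower rows were MT-CO2, MT-CO3 and MT-ND3. MT-ND2 did not pass there (1.08, edgeR adjusted p = 0.212), with ERI2 siRNA libraries at 15.2 and 30.3 CPM. The median log2 difference of the 17 was 0.31 in replicates 2 and 3 but 0.0009 between control replicate 1 and ERI2 siRNA replicate 1. MT-ND1 (0.52 in replicate 1 and 0.47 in replicates 2 and 3) and MT-ND2 (1.31 and 1.10) had similar differences in both. MT-ND4 (0.0009 and 0.31), MT-ND4L (-0.01 and 0.45), MT-ATP6 (0.01 and 0.42) and MT-CYB (0.001 and 0.19) were near 0 in replicate 1. MT-ND6 turned sign, from -0.92 to 1.46. The replicate 1 pair is 1 library against 1 and has no test, and the labels do not say that its libraries were made together. For MT-ND6 that pair rests on 78 counts in control and 37 in ERI2 siRNA replicate 1.

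**Figure D4:**
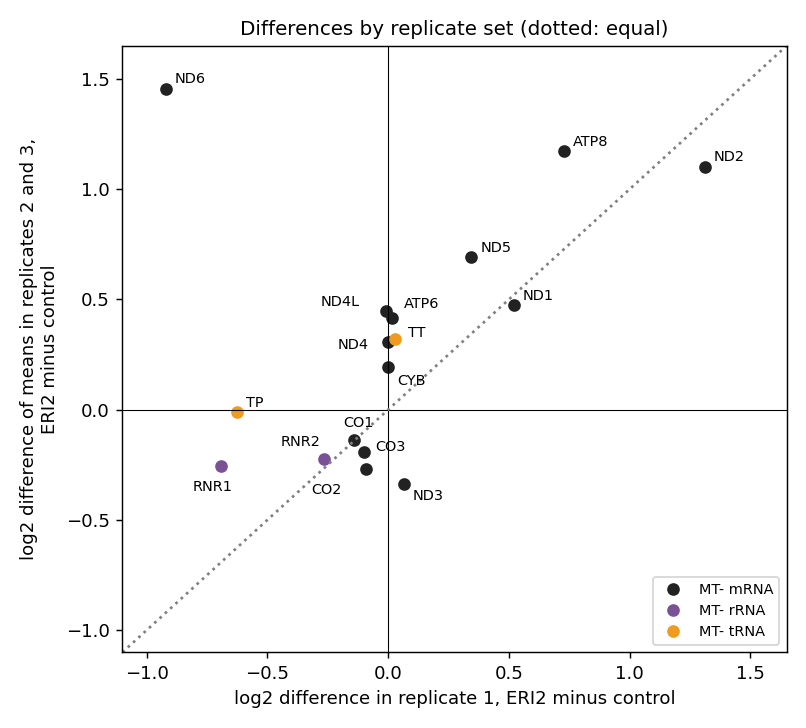
Log2 difference in CPM (TMM), ERI2 siRNA minus control, of the 17 tested MT- rows in replicate 1 (x axis) and between the means of replicates 2 and 3 (y axis), with equality dotted and names shown without MT-. MT-ND1 and MT-ND2 lie near the dotted line, MT-ND4, MT-ND4L, MT-ATP6 and MT-CYB lie at about 0 on the x axis only, and MT-ND6 has opposite signs.

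A share within the mitochondrial mRNAs of a library does not depend on the scaling between libraries. By that measure complex IV was lower, complexes I and III (MT-CYB alone) were higher with no overlap, and complex V overlapped. MT-CO1, MT-CO2 and MT-CO3 together took 90.2%, 91.3% and 91.7% of the MT- mRNA counts in control and 88.3%, 89.0% and 86.9% in ERI2 siRNA libraries, with no overlap. The 7 complex I mRNAs took 5.76%, 5.15% and 4.72% in control and 7.40%, 6.69% and 8.06% in ERI2 siRNA libraries, also with no overlap. MT-CYB took 2.73% ± 0.0960 in control and 3.22% ± 0.234 in ERI2 siRNA libraries (SD, n = 3). The complex V mRNAs took 1.18%, 0.957% and 0.837% in control and 1.33%, 1.15% and 1.57% in ERI2 siRNA libraries. Because complex IV mRNAs make up most of the sum, the share of any other mRNA is chiefly its ratio to these 3. A lower complex IV share and a higher share of the rest are thus the same difference. As a share of all counts every complex overlapped between the groups. Complex I held 0.0214%, 0.0178% and 0.0141% of all counts in control and 0.0251%, 0.0208% and 0.0264% in ERI2 siRNA libraries. No share over all genes was computed for such sums.

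For single mRNAs the share was higher with no overlap for 7 of 13 and lower for 1. Counted per MT- mRNA count in the same way, 16.9% of all tested genes were higher and 4.26% lower with no overlap. The 7 were MT-ND1, MT-ND2, MT-ATP8, MT-ND4L, MT-ND4, MT-ND5 and MT-CYB, and the lower one was MT-CO3. The share of MT-ND1 went from 0.424% ± 0.0416 to 0.644% ± 0.0323, that of MT-ND5 from 1.47% ± 0.199 to 2.35% ± 0.288 and that of MT-ND2 from 0.338% ± 0.0397 to 0.824% ± 0.277 (SD, n = 3). The shares of MT-CO1 overlapped, at 39.7% ± 0.173 and 38.9% ± 1.5 (SD, n = 3). Each of the 8 reached an exact two-sided permutation p of 0.10, the smallest that 3 libraries against 3 allow, and 0.162 after Benjamini-Hochberg adjustment over the 13 mRNAs, so this design could not pass 0.05. These counts depended on the denominator. With all MT- counts as denominator the same 7 were higher and none was lower, and MT-CO3 overlapped. Another denominator held only MT-ND3, MT-ND4L, MT-ND4, MT-ND5, MT-ND6 and MT-CYB, the mRNAs not named above as having closely matching long nuclear copies. It may not be free of nuclear reads, because rows named as copies of MT-ND4 and MT-ND5 (MTND4P32 and MTND5P26, below) held counts. With it 4 were higher (MT-ND1, MT-ND2, MT-ATP8 and MT-ND5) and 4 lower (MT-CO1, MT-CO2, MT-CO3 and MT-ND3). There MT-ND4L, MT-ND4 and MT-CYB overlapped, and MT-ND4 and MT-CYB turned sign (to -0.034 and -0.11 on the log2 scale). That denominator includes MT-ND4L, MT-ND4 and MT-CYB themselves, and MT-ND5, which was called higher under TMM. Its largest members were MT-CYB, MT-ND4 and MT-ND5, with means of 3228, 2417 and 2061 counts. The overlap and turned signs there are thus partly built in, and nothing is concluded from them. For neither of these other denominators was the share of all genes without overlap computed.

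**Figure D5:**
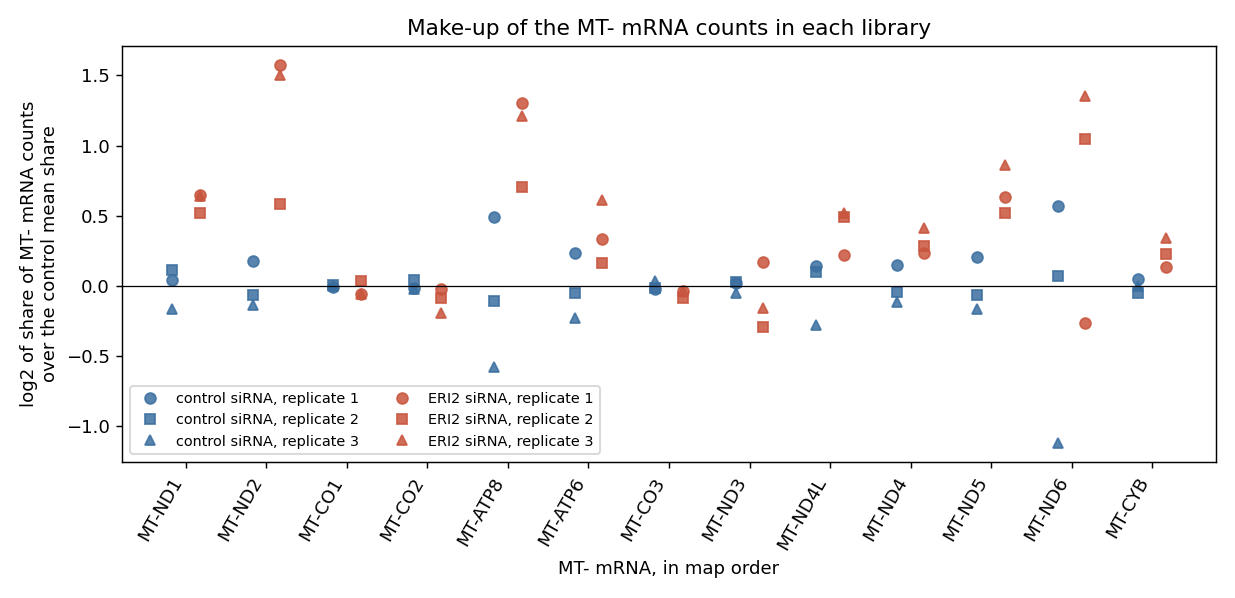
Log2 of each mRNA's share of the MT- mRNA counts of its library over the mean control share (y axis), for the 13 mRNAs in map order, 1 point per library. MT-CO1, MT-CO2 and MT-CO3 stay near 0 in all libraries, while the 3 ERI2 siRNA points of MT-ND1, MT-ND2, MT-ATP8, MT-ND4L, MT-ND4, MT-ND5 and MT-CYB lie above all control points.

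Ratios between single members, chosen after the values were seen and given with no test, showed which transcripts kept pace with each other. MT-CO3 per MT-CO1 was 0.980, 0.978 and 1.01 in control and 1.01, 0.909 and 1.01 in ERI2 siRNA libraries. MT-RNR2 per MT-ND1, transcripts separated by a single tRNA gene on the heavy-strand precursor, was 17, 17.1 and 17.4 in control and 9.85, 11.4 and 9.94 in ERI2 siRNA libraries. The control spread of that ratio was small although control replicate 3 had fewer counts of both. MT-ND2 per MT-ND1 was 0.878, 0.705 and 0.815 in control and 1.52, 0.833 and 1.45 in ERI2 siRNA libraries, so ERI2 siRNA replicate 2 stayed inside the control range. MT-ATP8 per MT-ATP6 was 0.0805, 0.0648 and 0.0531 against 0.132, 0.0983 and 0.102, with no overlap. MT-ND4L per MT-ND4 overlapped, at 0.162 ± 0.0177 and 0.174 ± 0.0132 (SD, n = 3).

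Rows named as nuclear copies of mitochondrial genes were read beside the members. Of 188 such rows, pseudogenes and humanin-like MTRNR2L genes, 149 had no count and 6 were tested, and their summed counts were 0.166% to 0.369% of the MT- counts of a library. MTND1P32, a copy of MT-ND1, held 70, 45 and 30 counts in control and 87, 99 and 118 in ERI2 siRNA libraries and rose by 1.16 on the log2 scale (SE 0.253; edgeR adjusted p = 0.0151). MTND4P32, a copy of MT-ND4, held 46, 47 and 23 against 58, 72 and 108 counts and rose by 1.14 (SE 0.286; edgeR adjusted p = 0.0278). Both had low counts, and control replicate 3 was again lowest. MTND1P32 lost its call without control replicate 2 (edgeR adjusted p = 0.0590), control replicate 3 (0.0700) or ERI2 siRNA replicate 3 (0.0739). MTND4P32 lost it without control replicate 2 (0.0614), control replicate 3 (0.120), ERI2 siRNA replicate 2 (0.0578) or ERI2 siRNA replicate 3 (0.152). MTND2P2 (0.56), MTND2P28 (-0.66), MTND5P26 (0.92) and MTRNR2L9 (-0.09) did not pass, with adjusted p from 0.107 to 0.920 in edgeR's test. Whether reads of the members were counted in these rows was not tested.

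Nuclear genes that transcribe, cut, modify, stabilize and decode these RNAs were taken from 6 lists with 88 tested genes. Of these 5 rose and 1 fell under TMM, 5.68% and 1.14% against 4.29% and 4.25% of all genes, with a median log2 fold change of 0.06 beside 0.003. Under total library size 7 rose and 1 fell, 7.95% and 1.14% against 5.17% and 2.47%. POLRMT, the mitochondrial RNA polymerase, rose from 45.8 ± 2.61 to 61.7 ± 3.42 CPM (SD, n = 3; log2 fold change 0.43, edgeR adjusted p = 0.00692) and was the only 1 of 9 transcription genes that passed. Its call was kept without any 1 library, with adjusted p from 0.00218 to 0.0394.

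FASTK, whose family acts on mitochondrial RNA and which is tied to the MT-ND6 transcript, rose from 104 ± 10.2 to 144 ± 10.3 CPM (SD, n = 3; log2 fold change 0.48, edgeR adjusted p = 0.00675), 1 of 17 genes of mRNA stability, polyadenylation and decay. Among 16 genes of transcript cleavage and tRNA maturation, the tRNA-modifying enzymes GTPBP3 (0.38) and PUS1 (0.47) rose, with adjusted p of 0.0135 and 0.0215 in edgeR's test. SARS2, the mitochondrial seryl-tRNA synthetase, rose by 0.62 (edgeR adjusted p = 0.0322), 1 of 17 synthetases. Among 13 genes of mitochondrial DNA replication and upkeep RRM2B, a subunit that helps supply deoxynucleotides and a known p53 target, fell by 0.48 on the log2 scale (edgeR adjusted p = 0.0119). None of 16 genes of rRNA modification and ribosome assembly passed in edgeR under TMM (DESeq2 called 1, RPUSD4, limma-voom called 0, and 2 had an unadjusted edgeR p under 0.05), with RPUSD4 (0.24, adjusted p = 0.0608) and MRM1 (0.38, adjusted p = 0.0896) nearest. RPUSD4 passed under total library size (0.30, edgeR adjusted p = 0.0385). GTPBP3 and PUS1 lost their calls without control replicate 2 (0.0539 and 0.0796 in edgeR's test) or without ERI2 siRNA replicate 2 (0.0645 and 0.0823) or 3 (0.0675 and 0.112). SARS2 lost its call without control replicate 2 (0.119 in edgeR's test), control replicate 3 (0.135), ERI2 siRNA replicate 2 (0.0797) or ERI2 siRNA replicate 3 (0.158), and RRM2B without control replicate 3 (0.0565). With replicates 2 and 3 alone 17 of the 88 were higher and 11 lower, 19.3% and 12.5% against 13.9% and 14.1% of all genes. These counts carry the limit stated above for that subset.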

How the data were processed

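Long RNA of 6 libraries was used, 3 per group; the miRNA table, which holds no MT- rows, was not used here. The authors deposited raw read counts per gene name, whole numbers with different totals. CASAVA 1.8.2, TopHat2 2.0.10, HTSeq 0.6.1p1 and build hg19 are named per the submitters' processing notes, with no role or order. Not given in the sources used here are the strand setting, the annotation release and the treatment of reads with several matches. A TruSeq RNA kit was used, per the labels' protocols, which do not describe RNA selection.

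Counts were filtered with filterByExpr, scaled by TMM or by total counts, and tested in edgeR 4.0.16 (quasi-likelihood, robust; R 4.3.3) over all genes with Benjamini-Hochberg adjustment at 0.05; the fit was tested on simulated data. SE is the log2 fold change over the square root of F. Alternatives were RLE and upper quartile scaling, TMM without MT- rows, DESeq2 1.42.0, limma-voom (limma 3.58.1), other count filters, an adjusted p under 0.01, each library left out in turn, replicates 2 and 3 alone, and a replicate block. Named are all MT- mRNA and rRNA rows, tRNA rows tested or with a mean of at least 10 counts, ERI2, list members past the test or else the 2 smallest p, and nuclear copies called or with a mean of at least 10 CPM; other tRNA rows and tested copies, and marker genes, were added after their values were seen. Members and lists were chosen with earlier results of these data known. Gene order was read from RefSeq (GRCh38.p14), where 37 of 37 members matched; its coordinates and lengths were not used, being of another build. Replicates of a group differed by more than counting noise (chi-square per degree of freedom at least 5.03). One marker of another cell type is not reported here.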

Additional observations from a re-analysis of the deposited data

How the results depend on the processing

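The 17 fold changes of tested MT- rows kept their direction in every alternative run, and these runs share most of their libraries. The difference between the replicate 1 libraries, not among these runs, had the opposite sign for MT-ND6 (-0.92), MT-ND3 (0.065) and MT-ND4L (-0.009). It had the same sign for all other tested MT- rows. The number of MT- rows called higher was 4 and became 1 under total library size, 1 with the replicate number as a block (MT-ND2) and 0 at an adjusted p under 0.01; without single libraries it ranged from 0 to 4. The number called lower was 0 and became 1 with DESeq2 and 1 with no count filter (MT-RNR1 in both), and 3 with replicates 2 and 3 alone; without single libraries it ranged from 0 to 2. No count filter also ended the call of MT-ND2 (adjusted p = 0.235 in edgeR's test), upper quartile scaling ended it (0.0537), and limma-voom ended that of MT-ATP8 (0.0507); the cause was not tested. Of the mitochondrial gene expression lists the number higher was 5, and 0 with the block, 17 with replicates 2 and 3 alone and 2 at an adjusted p under 0.01, ranging from 2 to 8 without single libraries. The number lower was 1, and 3 with no count filter, 0 with the block, 11 with replicates 2 and 3 alone and 0 at an adjusted p under 0.01, ranging from 0 to 4 without single libraries. Nuclear copies called higher numbered 2, and 0 with the block and 0 at an adjusted p under 0.01, ranging from 0 to 3 without single libraries, with MTND5P26 as the added one (adjusted p = 0.0436 in edgeR without control replicate 1). MTRNR2L9 (-0.09) ranged from -0.50 to 0.20 without single libraries, positive without control replicate 3 (0.14) or ERI2 siRNA replicate 3. The log2 ratio of MT-ND3 shares ranged from -0.22 to 0.015 without single libraries, positive without ERI2 siRNA replicate 2. Those of MT-ND4 and MT-CYB turned to -0.034 and -0.11 under the denominator of MT-ND3, MT-ND4L, MT-ND4, MT-ND5, MT-ND6 and MT-CYB, which holds both. The difference in the share of counts in MT- rows ranged from -0.0403 to 0.0016 percentage points without single libraries, positive only without control replicate 1. The labels do not say that the replicate numbers pair the samples. The deviations of same-numbered libraries correlated at -0.30, -0.08 and -0.10, and no library correlated best with its own number. With 3 libraries per group these correlations cannot decide whether same-numbered libraries were made together. Over all genes the calls numbered 809 higher and 800 lower, and 105 and 98 with the block. As a share of all genes, calls in both directions were 8.54%, and ranged from 1.93% to 14.1% without single libraries. Depth limits MT-ND6, MT-ATP8 and the tRNA rows most, with 17 to 168 counts per library in those mRNAs.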
